A study of Homo sapiens with 4 samples.

Results

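A group of 10 integrin subunit genes that lie outside the hemidesmosome were followed in MDA-MB-231, an established line grown from a human triple-negative breast tumour. They were taken by symbol from the deposited gene tables: the alpha subunits ITGA1, ITGA2, ITGA3, ITGA5, ITGA10 and ITGAV and the beta subunits ITGB1, ITGB3, ITGB5 and ITGB8. These are 10 of the 26 integrin subunit genes and of 61471 gene names in the tables, and all 10 were among the 16413 genes with enough counts to be tested. Per the labels the cells were of genotype WT and carried H2B-EGFP, a histone fused to a green fluorescent protein, and CMV-RFP, a red fluorescent protein under a viral promoter. The EGFP positive group (2 libraries) had the status no increased extravasation, and the EGFP negative group (2 libraries) the status increased extravasation, extravasation being the exit of tumour cells from blood vessels into tissue. The labels list the same line, constructs and culture medium with fetal bovine serum for both groups. They do not say how the groups were separated, whether a group is a clone, or whether its libraries came from separate cultures. The p-values therefore rest on library-to-library spread alone, and that spread may be technical. EGFP and extravasation status changed together, so their parts in any difference cannot be told apart.

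Integrins are receptors made of an alpha and a beta chain that link the matrix outside a cell to actin inside it. The alpha chain largely sets the ligand, and a beta chain reaches the surface only with an alpha partner. ITGB1 pairs with most of the alpha chains here, among them the collagen receptors of ITGA1, ITGA2 and ITGA10, the laminin receptor of ITGA3 and the fibronectin receptor of ITGA5, whereas ITGAV also pairs with ITGB3, ITGB5 or ITGB8. The ITGAV receptors and the ITGA5 receptor bind the short peptide motif RGD, found in fibronectin, vitronectin and latent TGF-beta. In breast cancer cells such receptors are known for their part in adhesion, invasion and passage through vessel walls.

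Gene counts summed to 11445076 to 12635576 per library, so that a count of 3, taken as the detection floor, corresponded to 0.241 to 0.26 CPM. CPM are counts scaled to a common library total. H2BC11, an H2B gene, served as a check of the labels and was at 654 and 6.28 CPM in EGFP positive and EGFP negative cells. Of the receptors that define a triple-negative tumour, ESR1 and PGR had 0 to 2 counts per library, while ERBB2 was at 80.6 to 99.2 CPM. Of 5 mesenchymal and basal markers 2 were called higher in EGFP negative cells and 2 lower, beside 9.40 and 9.46% of all tested genes. VIM (4199 and 5813 CPM in EGFP positive and EGFP negative cells) and ZEB1 (103 and 139 CPM) were higher. CD44 (865 and 641 CPM) and EGFR (601 and 479 CPM) were lower, and AXL (1693 and 1623 CPM) did not pass. Of 5 luminal epithelial markers 0 were called higher and 1 lower, EPCAM (13 and 6.84 CPM). Summed luminal markers were at 773 to 934 CPM and summed fibroblast markers at 14.2 to 24.2 CPM. Summed leukocyte markers reached at most 2.23 CPM and summed erythroid or platelet markers 1.21 CPM. Summed endothelial markers were at 11.8 to 14.4 CPM with CDH5 at 0 counts. Most of that sum was KDR, which was at 13.1 and 13.3 CPM in EGFP positive and 10.5 and 8.06 CPM in EGFP negative libraries and did not pass (adjusted p = 0.067). The other tested marker of the 5, the adhesion gene PECAM1, was called higher, with 9 counts in each EGFP positive library and 39 and 43 in the EGFP negative ones. The part of these genes in the results below was not tested.

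The sequences that bear on how these genes could be counted are shown first. ITGB1 has a processed copy, ITGB1P1, a piece of its messenger RNA copied back into the genome without introns (GRCh38 chromosome 19, 14621634 to 14622242, minus strand). Its 609 annotated bases were identical to the ITGB1 messenger RNA at 609 of 609 positions in GENCODE 29, and they ended just before the stop codon. The last 120 bases, which code for the end of the cytoplasmic tail, are given below with the codons of both NPxY motifs in capitals, the sites at which talin and kindlin bind the tail.
ITGB1P1 and ITGB1: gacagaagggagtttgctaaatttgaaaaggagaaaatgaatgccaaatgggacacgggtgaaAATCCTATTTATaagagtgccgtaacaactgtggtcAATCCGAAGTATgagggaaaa
Reads within this stretch can come from either locus. ITGB1P1 had 3303, 3258, 3890 and 4298 counts in EGFP positive libraries 1 and 2 and EGFP negative libraries 1 and 2. That was 18.5 to 20% of the counts of ITGB1 and ITGB1P1 together, and per length 3.88 to 4.24 times the level of ITGB1. In the share of reads on the copy the groups overlapped, at 19.9 and 19.3% in EGFP positive and 18.5 and 20% in EGFP negative libraries. The level printed for ITGB1 below is therefore an underestimate if the reads on the copy are from ITGB1, which was not tested. No other member shared 100 or more windows of 50 bases with a transcript outside its own locus in GENCODE 29.

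The 3 collagen-binding alpha genes moved in the same direction, and the 250 bases before their RefSeq start sites (GRCh38.p14) are shown for comparison. Capitals mark the GC box GGGCGG on either strand, a site bound by Sp and KLF factors.
ITGA2, chr5:52989102-52989351, plus strand: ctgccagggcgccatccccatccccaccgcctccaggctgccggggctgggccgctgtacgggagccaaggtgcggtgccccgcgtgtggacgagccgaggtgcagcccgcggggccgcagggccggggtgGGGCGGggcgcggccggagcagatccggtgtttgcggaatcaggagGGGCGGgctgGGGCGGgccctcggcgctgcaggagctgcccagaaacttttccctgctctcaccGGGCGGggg
ITGA1, chr5:52787666-52787915, plus strand: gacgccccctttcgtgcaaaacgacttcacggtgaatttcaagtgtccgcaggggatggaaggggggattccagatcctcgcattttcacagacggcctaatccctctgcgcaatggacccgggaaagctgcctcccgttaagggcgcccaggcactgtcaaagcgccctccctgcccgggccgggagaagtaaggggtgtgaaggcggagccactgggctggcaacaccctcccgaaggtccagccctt
ITGA10, chr1:145910051-145910300, minus strand: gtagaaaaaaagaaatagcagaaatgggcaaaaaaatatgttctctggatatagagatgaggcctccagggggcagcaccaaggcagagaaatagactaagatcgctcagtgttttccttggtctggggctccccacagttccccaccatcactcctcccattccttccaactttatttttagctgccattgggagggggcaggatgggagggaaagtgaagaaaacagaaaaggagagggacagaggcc
The ITGA2 window held 4 GC boxes and was 76.4% G and C. The ITGA1 and ITGA10 windows held 0, at 62 and 48.4% G and C. The ITGA1 window lies equally before PELO, a gene that starts at the same base as ITGA1 and did not pass (adjusted p = 0.81 by edgeR's quasi-likelihood test). Among 35116 RefSeq windows of this length 42.6% held a GC box. The AP-1 motif TGANTCA was in none of the 3 windows and in 6.57% of all windows. The TEAD motif GGAATG was in the ITGA10 window, not in those of ITGA1 and ITGA2, and in 11.9% of all windows. RefSeq windows were matched for 8 of the 10 members. There was none for ITGA3, also called higher, or for ITGB3, the only member called lower. GC boxes were also found before members that were not called: ITGB8 had 2 and the windows of ITGB5 had 3, 0 and 2, while those of ITGAV had 0. Of the other members called higher, ITGA5 had 1 and the windows of ITGB1 had 0 and 3.

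Of the 10 integrins 6 rose in EGFP negative cells and 1 fell. ITGA1, ITGA2, ITGA10, ITGA3, ITGA5 and ITGB1 were higher, ITGB3 was lower, and ITGAV, ITGB5 and ITGB8 did not pass (edgeR's quasi-likelihood test, Benjamini-Hochberg adjusted p below 0.05 over all tested genes). Among all tested genes 9.40% were called higher and 9.46% lower, 18.9% in all. The median log2 fold change, EGFP negative over EGFP positive, was 0.33 over the 10 members and 0.00 over all tested genes. Both EGFP negative libraries lay above both EGFP positive ones for 7 members and below them for 1, against 28.1 and 29.3% of all tested genes. In such bulk RNA, fewer cells that express a gene and less of its RNA per cell cannot be told apart. The calls of ITGA1, ITGA2, ITGA10 and ITGB3 were kept with any single library left out. Those of ITGA3, ITGA5 and ITGB1 were lost without either EGFP positive library, and fewer genes were then called over all tested genes as well. Without EGFP positive library 1 and 2 the log2 fold change was 0.26 and 0.20 for ITGA3. It was 0.37 and 0.35 for ITGA5 and 0.27 and 0.31 for ITGB1.

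**Figure D1:**
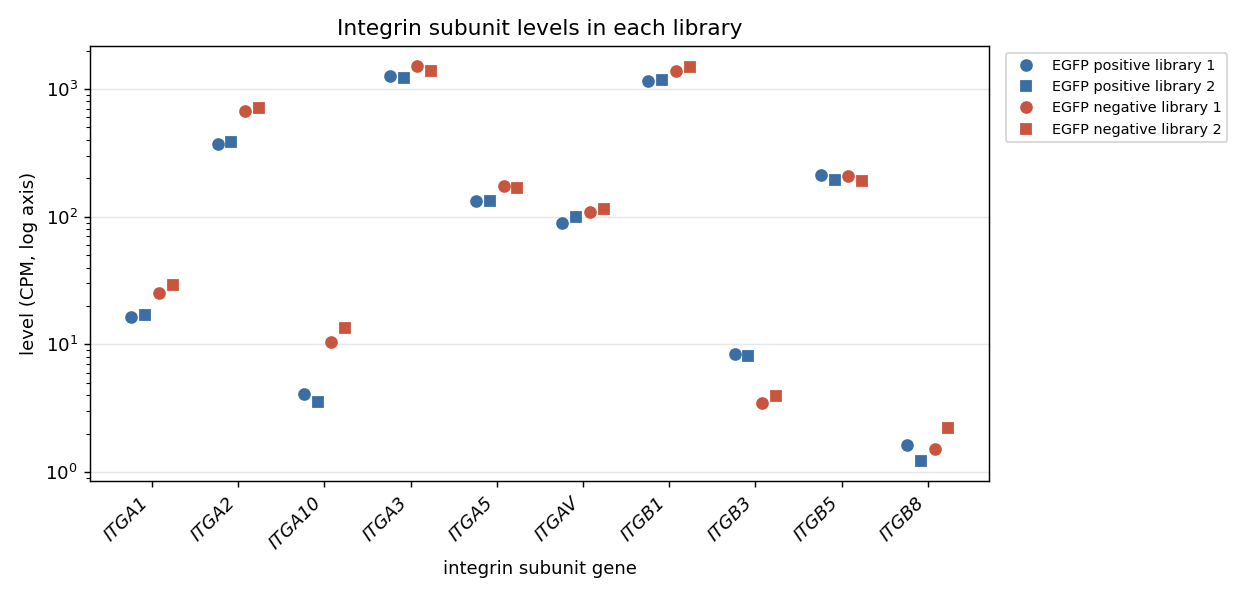
Level of each member in CPM on a log axis; each point is 1 library, blue for EGFP positive and red for EGFP negative. The red points lie above the blue ones for ITGA1, ITGA2, ITGA10, ITGA3, ITGA5, ITGAV and ITGB1 and below them for ITGB3, and the colours overlap for ITGB5 and ITGB8.

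The collagen receptor subunits had the largest rises. ITGA2 is the alpha chain of the main receptor for fibrillar collagen in epithelial cells and lies at GRCh38 chromosome 5, 52989352 to 53094779. It was at 368 and 383 CPM in the EGFP positive and at 667 and 711 CPM in the EGFP negative libraries. The groups did not overlap, and the level was 1.84-fold higher in EGFP negative cells (log2 fold change 0.88 ± 0.08, SE; adjusted p = 2.3e-06). ITGA1, the alpha chain of a receptor for collagen IV and other collagens, was much scarcer. Its levels were 16.4 and 17 CPM in EGFP positive and 25.1 and 29.1 CPM in EGFP negative libraries. ITGA1 was thus 1.62-fold higher, again without overlap (log2 fold change 0.70 ± 0.14, SE; adjusted p = 0.0025). ITGA10, first known as a collagen II receptor of cartilage, had 47 and 41 counts in EGFP positive and 129 and 156 counts in EGFP negative libraries. In CPM these were 4.07 and 3.56 against 10.4 and 13.4, a 3.10-fold rise and the largest among the members (log2 fold change 1.63 ± 0.22, SE; adjusted p = 1.4e-04). The fourth collagen-binding alpha gene, ITGA11, had 1 count in every library.

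ITGA1 and ITGA2 are neighbours on chromosome 5, and the genes around them did not move together. ITGA1 (52787916 to 52959209) starts at the same base as PELO, which encodes a ribosome rescue factor, and shares 499 of its 10736 exon bases with it on the same strand. PELO was at 72.1 and 70 CPM, and its log2 fold change was -0.04 ± 0.09 (SE), with adjusted p = 0.81. Adding the PELO reads and those of an antisense gene to ITGA1 brought its log2 fold change to 0.13 (adjusted p = 0.35). PELO had 796 to 893 counts per library and ITGA1 189 to 339, so that sum mostly follows PELO. The part of reads on the shared bases in the rise of ITGA1 was not tested. Beyond ITGA2, MOCS2 was at 78 and 81.5 CPM (adjusted p = 0.76). FST, which encodes the activin-binding protein follistatin, fell to 46.7 CPM from 219 CPM, a log2 change of -2.23 ± 0.10 (SE) with adjusted p = 2.2e-09. Of the 6 protein-coding genes tested within 1 Mb of ITGA2, ITGA1 was the only one called higher and FST the only one called lower. Over all tested genes 9.40% were called higher and 9.46% lower.

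ITGB1 and its most abundant partner ITGA3 rose by less. ITGB1 (chromosome 10, 32887273 to 32958280) is the beta chain shared by the collagen, laminin and fibronectin receptors. It was at 1149 and 1185 CPM in EGFP positive and at 1372 and 1477 CPM in EGFP negative libraries. The 1.22-fold difference was free of overlap (log2 fold change 0.29 ± 0.07, SE; adjusted p = 0.012), and the adjusted p was 0.31 and 0.21 without EGFP positive library 1 and 2. With the reads of ITGB1P1 added, the log2 fold change was 0.28 (adjusted p = 0.014). The copy itself, at 284 and 340 CPM, did not pass on its own: its log2 fold change was 0.26 ± 0.09 (SE), with adjusted p = 0.054. ITGA3 (chromosome 17, 50056110 to 50090481) encodes the alpha chain of a laminin receptor and is the one member that binds chiefly laminin. Its libraries gave 1264 and 1212 CPM in EGFP positive and 1523 and 1383 CPM in EGFP negative cells. ITGA3 was 1.17-fold higher, close to the threshold (log2 fold change 0.23 ± 0.07, SE; adjusted p = 0.042). Its call was lost by DESeq2 (adjusted p = 0.066) and without EGFP positive library 1 (0.32) or 2 (0.52).

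The receptors for fibronectin and other RGD ligands split. ITGA5 (chromosome 12, 54395261 to 54419266), whose product pairs with ITGB1 as the classical fibronectin receptor, was at 133 and 132 CPM in EGFP positive and 173 and 167 CPM in EGFP negative libraries. Of 14 protein-coding genes tested within 1 Mb of ITGA5, 8 were called higher and 0 lower, beside 9.40 and 9.46% of all tested genes. What these neighbours have to do with ITGA5 was not tested. ITGA5 itself was 1.29-fold higher without overlap (log2 fold change 0.36 ± 0.08, SE; adjusted p = 0.0067). Without EGFP positive library 1 or 2 the adjusted p was 0.13 and 0.17. ITGAV (chromosome 2, 186590010 to 186680901), the common alpha chain of the RGD receptors, had 89.3 and 99.7 CPM against 109 and 115 CPM. Its groups did not overlap, but it did not pass (log2 fold change 0.25 ± 0.09, SE; adjusted p = 0.078); it passed without EGFP negative library 1 (0.0032) or 2 (0.031) and with the replicate number as a block (0.01).

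Of ITGB3, ITGB5 and ITGB8, the beta chains that pair with ITGAV and not with the other members, ITGB3 was called. ITGB3 (chromosome 17, 47253827 to 47313743) forms the vitronectin receptor of endothelium, osteoclasts and many invasive tumours. It had 98 and 94 counts in EGFP positive and 43 and 46 counts in EGFP negative libraries, or 8.48 and 8.16 against 3.45 and 3.94 CPM. The level in EGFP negative cells was 2.25-fold lower, with no overlap (log2 fold change -1.17 ± 0.23, SE; adjusted p = 0.0023). A same-strand gene without a symbol covers 33.2% of the ITGB3 exon bases and had 0 counts in every library. Those 0 counts do not show that reads on the shared bases were counted for ITGB3, which was not tested. If they were not, the level per length of ITGB3 below is too low in both groups, which bears on its ratios and shares. ITGB5 (chromosome 3, 124761948 to 124887365), the beta chain of another vitronectin receptor, was at 212 and 193 CPM in EGFP positive and 207 and 189 CPM in EGFP negative libraries. These values overlapped, and the log2 fold change was -0.03 ± 0.09 (SE), with adjusted p = 0.85. ITGB8 (chromosome 7, 20330702 to 20415754), whose receptor activates latent TGF-beta, had 19 and 14 against 19 and 26 counts, too few to resolve a change of this size (log2 fold change 0.39 ± 0.40, SE; adjusted p = 0.58).

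**Figure D2:**
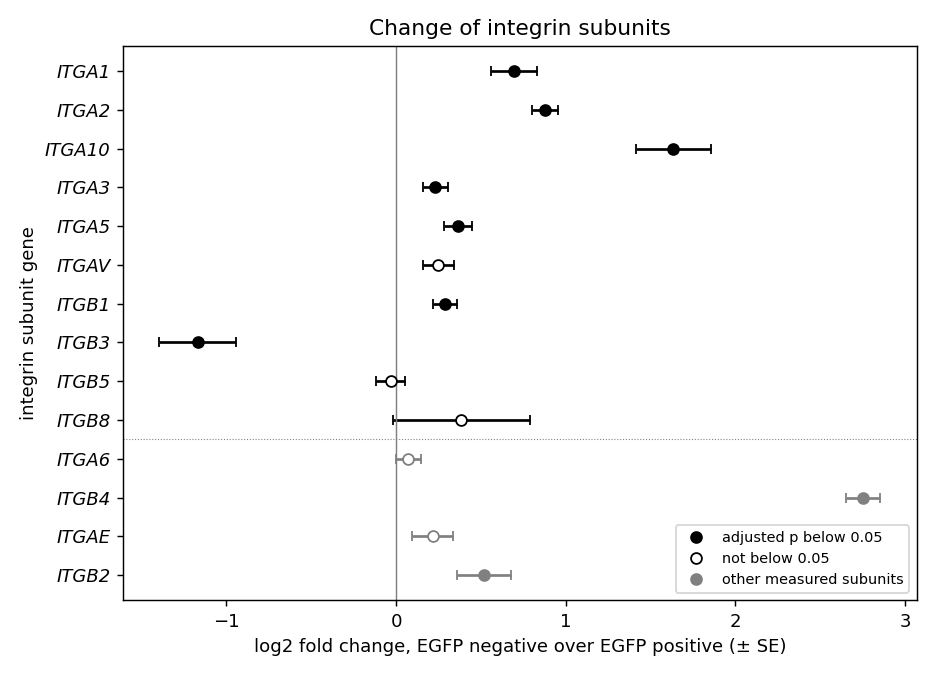
Log2 fold change of EGFP negative over EGFP positive cells with its standard error for the 10 members (black) and the 4 other measured integrin subunits (grey); filled points passed at an adjusted p below 0.05. ITGA10 lies highest of the members at 1.63 and ITGB3 lowest at -1.17.

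Levels per length set the subunits in an order that was similar in both groups. In CPM per kb of exon, ITGA3 led with 253 ± 7.46 and 297 ± 20.3 (SD, n = 2) in EGFP positive and EGFP negative cells. ITGB1 followed with 113 ± 2.45 and 137 ± 7.14, then ITGA2 with 47.9 ± 1.40 and 87.9 ± 3.97, ITGB5 with 45.6 ± 3.12 and 44.6 ± 2.89, ITGA5 with 31.1 ± 0.26 and 40.1 ± 0.98 and ITGAV with 13 ± 1.02 and 15.5 ± 0.61 (SD, n = 2 each). ITGA2 and ITGB5 overlapped in EGFP positive libraries and were apart in EGFP negative ones. The scarce subunits were ITGA1 (1.55 and 2.52 CPM per kb), ITGA10 (0.737 and 2.30), ITGB3 (1.22 and 0.542) and ITGB8 (0.155 and 0.204). ITGB3 lay above ITGA10 in EGFP positive and below it in EGFP negative libraries. Exon lengths include untranslated parts, and the ratio of exon to coding length ran from 1.35 for ITGA5 to 4.31 for ITGB1, so levels of different genes depend on the length used. Per kb of coding sequence ITGB1 and ITGA3 changed places. ITGB1 was then at 486 ± 10.6 and 593 ± 30.8 CPM per kb (SD, n = 2) in EGFP positive and EGFP negative cells and ITGA3 at 387 ± 11.4 and 454 ± 31 CPM per kb, with the libraries of the genes apart in both groups.

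By alpha-beta pairing, the collagen receptor chains were higher relative to ITGB1 in EGFP negative cells, and for the other ITGB1 partners the groups overlapped. The ratio of ITGA2 to ITGB1, from CPM per kb, was 0.423 and 0.427 in EGFP positive and 0.643 and 0.637 in EGFP negative libraries, a log2 change of 0.59. The ratio of ITGA1 to ITGB1 was 0.0137 and 0.0139 against 0.0176 and 0.019, and that of ITGA10 to ITGB1 was 0.00709 and 0.00602 against 0.0151 and 0.0181. In these 3 ratios the groups did not overlap. They overlapped for ITGA3 to ITGB1 (2.33 and 2.17 against 2.35 and 1.98), ITGA5 to ITGB1 (0.283 and 0.271 against 0.308 and 0.276) and ITGAV to ITGB1 (0.111 and 0.12 against 0.114 and 0.112). The sum of the 6 alpha chains over ITGB1 also overlapped, at 3.17 and 3.01 against 3.45 and 3.05. With 2 against 2 libraries the smallest exact two-sided permutation p is 0.33, so the ratios are given without a test.

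Among the pairings of ITGAV, the ratio to ITGB3 differed most. The ratio of ITGAV to ITGB3 was 9.90 and 11.5 in EGFP positive and 29.7 and 27.5 in EGFP negative libraries, 2.68-fold higher and far from overlap. ITGAV to ITGB5 was 0.257 and 0.316 against 0.322 and 0.373, apart by a narrow margin. ITGAV to ITGB8 was 69 and 104 against 90.8 and 65.8 and overlapped. Among ITGB3, ITGB5 and ITGB8, ITGB5 made up 97.1 and 97% of the summed level per length in EGFP positive and 98.6 and 98.1% in EGFP negative libraries. The share of ITGB3 was 2.52 and 2.67% against 1.07 and 1.33%.

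**Figure D3:**
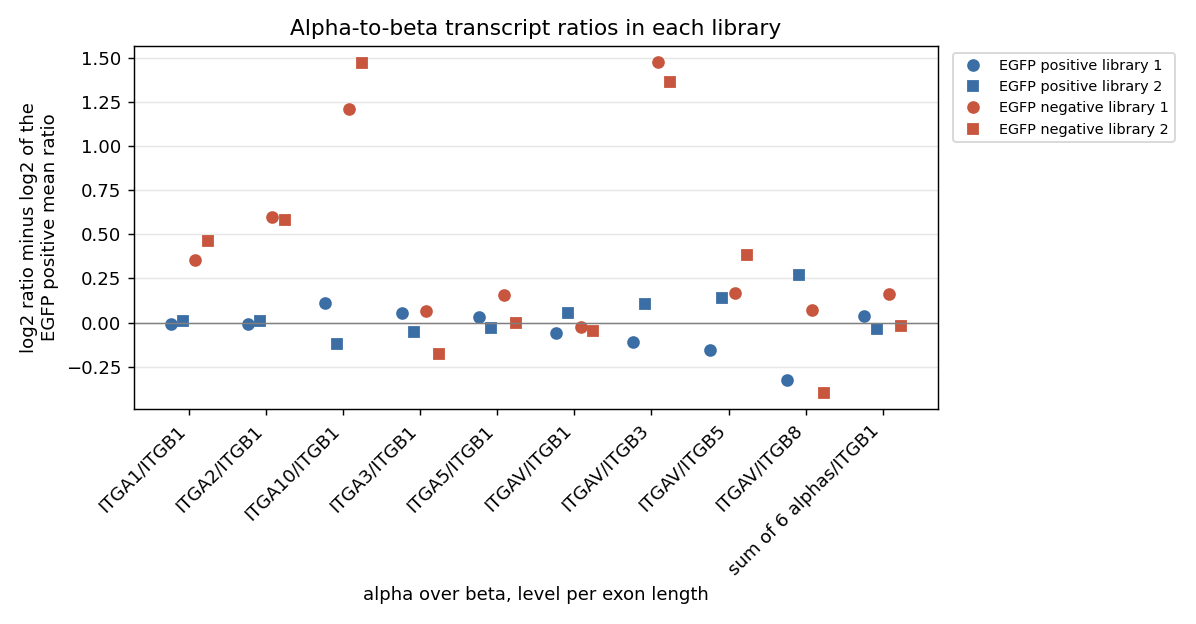
Log2 ratio of alpha to beta level per exon length in each library, minus the log2 of the mean EGFP positive ratio of that pair. EGFP negative libraries (red) stand apart upward for ITGA1, ITGA2 and ITGA10 over ITGB1 and for ITGAV over ITGB3 and, narrowly, over ITGB5, and mix with EGFP positive ones (blue) for the other pairs.

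Among the 6 member alpha chains that can pair with ITGB1, ITGA2 took a larger and ITGA3 a smaller share in EGFP negative libraries. ITGA2 held 13.3 and 14.2% of the summed level per length of the 6 alpha chains in EGFP positive and 18.6 and 20.9% in EGFP negative libraries. ITGA3 held 73.6 and 72.1% against 68.2 and 65.2%. ITGA5 stayed within 8.92 to 9.07% in all 4 libraries, and its groups overlapped. With coding lengths in place of exon lengths ITGA2 averaged 18.6 and 26% and ITGA3 67.8 and 60.6% in the EGFP positive and EGFP negative groups. ITGA6, which can also pair with ITGB1 but serves ITGB4 in the hemidesmosome, is not in that sum, and at 92.6 ± 2.47 and 97.4 ± 5.09 CPM per kb of exon (SD, n = 2) it lay above ITGA2 in both groups. With ITGA6 in the sum ITGA2 held 10.6 and 11.2% against 15.5 and 17%. ITGA3 then held 58.5 and 56.6% against 56.6 and 52.9%, so that its groups all but touched, and ITGA5 held 7.09 and 7.07% against 7.40 and 7.36%, without overlap. Within the collagen-binding chains ITGA2 held 94.5 to 95.6% in every library. ITGA10 took 1.60 and 1.35% of them in EGFP positive and 2.24 and 2.69% in EGFP negative libraries. These are shares of transcripts, and pairing at the protein level was not measured.

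**Figure D4:**
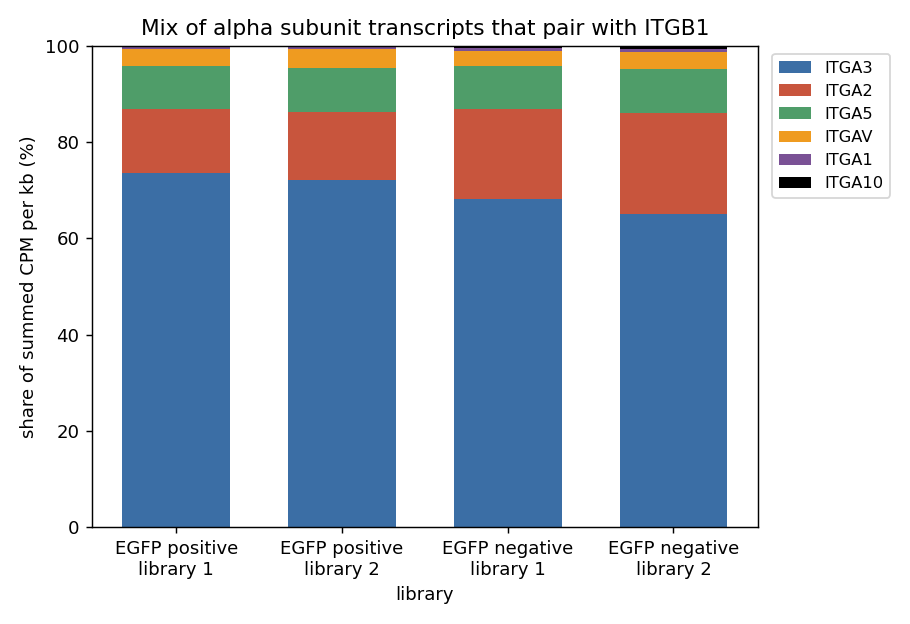
Share of each of the 6 alpha genes in their summed CPM per kb, ITGA6 not included, as a percentage, in each of the 4 libraries. The ITGA2 segment covers 13.3 and 14.2% in the EGFP positive and 18.6 and 20.9% in the EGFP negative bars, and the ITGA3 segment shrinks from 73.6 and 72.1% to 68.2 and 65.2%.

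The 16 other integrin subunits were mostly undetected. The filter was passed by 4 of them, of which 2 were called higher and 0 lower, beside 9.40 and 9.46% of all tested genes. ITGB4, the hemidesmosomal beta chain, had a log2 fold change of 2.75 ± 0.10 (SE), and its partner ITGA6 was at 593 and 623 CPM (adjusted p = 0.57). ITGB2, the beta chain of leukocyte integrins, rose from 12.1 to 17.3 CPM (adjusted p = 0.036), a call that was lost by DESeq2 (0.12), with no filter (0.072) and without EGFP positive library 1 (0.066) or 2 (0.42). ITGAE, the alpha chain of the lymphocyte receptor for E-cadherin, was at 27 and 31.4 CPM (adjusted p = 0.25). The other 12 had at most 10 counts in any library. ITGA4 and ITGAL had 0 counts in all 4, which allows up to 0.241 to 0.26 CPM per library. ITGB6, a further partner of ITGAV, had at most 1 count, and ITGA8, another RGD-binding alpha chain, likewise.

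Of 94 tested genes in the integrin-related lists, 30 were called higher and 17 lower, and the ligands of the 3 receptor classes differed in their counts. Over all tested genes 9.40% were called higher and 9.46% lower. Each list holds few genes, and no list was tested as a set. Of 14 genes for collagens that these receptors bind 10 were tested, with 4 higher and 2 lower (median log2 fold change 0.04, against 0.00 over all tested genes). The collagen VI genes COL6A1 (22.6 and 141.6 CPM), COL6A2 (2.04 and 22.1 CPM) and COL6A3 (28.1 and 67.7 CPM) and the transmembrane collagen gene COL13A1 (282 and 428 CPM) rose. The basement membrane gene COL4A1 fell from 120.1 to 85.7 CPM, and COL5A2 fell from 1.73 to 0.332 CPM. Without EGFP positive library 1 the call of COL5A2 was lost (adjusted p = 0.052). Of 20 genes for fibronectin and other ligands of the RGD-binding receptors 9 were tested, with 2 higher and 6 lower. Their median was -0.65, the value of CCN1. FN1, the fibronectin gene, did not pass: its libraries gave 389 and 386 against 362 and 347 CPM, a log2 fold change of -0.13 ± 0.08 (SE) with adjusted p = 0.28. THBS1, encoding thrombospondin 1, had the largest fall of that list (log2 fold change -1.77 ± 0.07, SE). CCN1 and CCN2, matricellular proteins that also serve as YAP readouts, fell 1.57-fold and 1.64-fold. The microfibril gene FBN1 (154 and 90.7 CPM) and MFGE8 (140.2 and 81.9 CPM), a bridge between apoptotic cells and ITGAV receptors, fell as well. Tenascin C, TNC (115 and 150.4 CPM), and TGFBI (73.8 and 95.6 CPM) rose, but neither was called without EGFP positive library 1 (adjusted p = 0.12 and 0.105) or 2 (0.11 and 0.23). Vitronectin, VTN, had 2 to 4 counts per library and osteopontin, SPP1, 0 or 1. Of the 7 laminin chain genes 3 were higher and 0 lower, with a median of 0.25: LAMA5 (298 and 656 CPM), LAMB1 (141 and 240 CPM) and LAMA3 (59.2 and 105 CPM). Without EGFP negative library 1 the laminin counts were 5 higher and 1 lower.

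Latent TGF-beta is the ligand of the ITGAV receptors with ITGB8, and its genes were counted too. Of 9 listed genes 8 were tested, with 5 higher and 1 lower and a median of 0.58, beside 9.40 and 9.46% of all tested genes. The binding proteins LTBP1 (37.4 and 83.8 CPM), LTBP4 (114 and 178 CPM) and LTBP3 (16.6 and 26.8 CPM) rose. So did TGFB1 (103 and 147 CPM), whose propeptide holds an RGD motif, and the membrane metalloproteinase gene MMP14 (740.4 and 1245 CPM). TGFB2 fell to 37.7 CPM from 95.5 CPM, a log2 change of -1.34 ± 0.10 (SE) with adjusted p = 5.1e-07.

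Genes that switch integrins on and off were counted next. Of 11 tested activators 2 were higher and 2 lower, with a median of -0.14. The shares over all tested genes were 9.40% higher and 9.46% lower. RAPGEF3, an exchange factor for the GTPase Rap1, rose from 8.62 to 17.7 CPM and RAP1B, which encodes a Rap1 protein, from 42.6 to 57.1 CPM. The talin gene TLN2 (44.1 and 33.2 CPM) and the kindlin gene FERMT1 (34.4 and 25.7 CPM) fell. Neither fall was called by DESeq2 (adjusted p = 0.054 and 0.096) or without EGFP positive library 1 (0.22 and 0.086) or 2 (0.101 and 0.32), and the call of RAP1B was lost without either of these libraries (0.18 and 0.091). The more abundant forms did not pass: TLN1 was at 1122 and 1104 CPM (adjusted p = 0.88) and FERMT2 at 143 and 138 CPM (adjusted p = 0.74). Of 8 tested inactivators 0 were higher and 2 lower, with a median of -0.12. These were PTPN2 (38.1 and 26.2 CPM), a phosphatase that binds the ITGA1 tail, and RAP1GAP2 (15.3 and 9.43 CPM), which turns Rap1 off. Without EGFP positive library 1 neither was called (adjusted p = 0.22 and 0.057) and without library 2 only PTPN2 was. Without EGFP negative library 1 the inactivators counted 3 lower, and without library 2 they counted 2 higher and 2 lower.

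Trafficking and surface partners of the integrins were the last groups. Of 20 tested trafficking genes 4 were higher and 3 lower, with a median of 0.04. Here too the shares over all tested genes were 9.40% higher and 9.46% lower. RAB11FIP1, whose product recycles ITGA5 receptors to the surface, fell 2.17-fold, to 21.4 CPM from 46.3 CPM (log2 change -1.12 ± 0.12 with its SE, adjusted p = 1.2e-05). The endocytic adaptor DAB2 (44.9 and 30.2 CPM) and the syntaxin gene STX6 (55.6 and 41 CPM) also fell. RASA1 (102 and 154 CPM) and RAB21 (67.1 and 83.2 CPM), both of which bind integrin alpha tails, rose, as did EPS8 (52.7 and 66.6 CPM) and ARF6 (344 and 404 CPM). Of these 4, RASA1 alone was called by DESeq2, with no filter and without either EGFP positive library. The lower calls were 1, RAB11FIP1, without EGFP positive library 1, 2 without library 2 and 5 without EGFP negative library 1. Of 7 tested genes for processing and glycosylation 2 were higher and 1 lower, with ST6GAL1, which sialylates ITGB1, at 1.43 and 5.13 CPM (adjusted p = 8.4e-04), B4GALT1 at 130 and 156 CPM and MGAT5 at 85 and 69.2 CPM. B4GALT1 and MGAT5 lost their calls by DESeq2 (adjusted p = 0.077 and 0.105), with no filter and without either EGFP positive library. Leaving out EGFP negative library 1 gave 2 lower genes. Of 10 lateral partners 6 were higher and 0 lower, with a median of 0.29. They were the tetraspanin genes CD82 (46.8 and 110.01 CPM), CD63 (258 and 406 CPM), CD9 (100.4 and 159 CPM) and CD151 (339 and 449 CPM), the last a close partner of ITGA3, together with CAV1 (575 and 716 CPM) and CD47 (89.6 and 108 CPM). The count fell to 4 without EGFP positive library 1, where CAV1 and CD47 were not called, and to 3 without library 2, where CD151 was not called either. Without EGFP negative library 1 there were 2 lower.

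**Figure D5:**
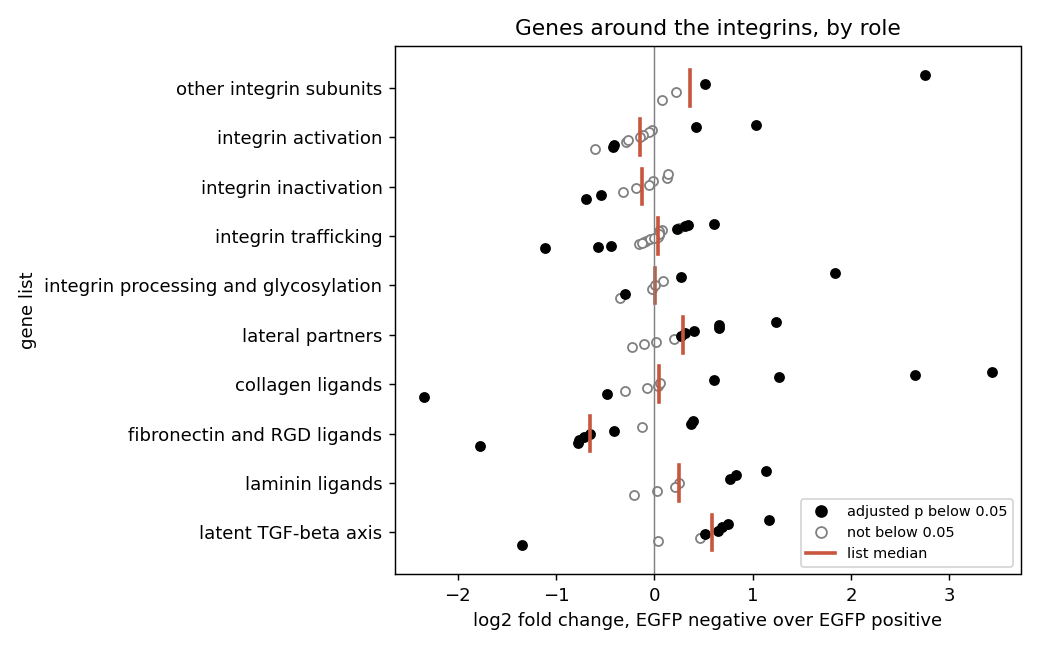
Log2 fold change of each tested gene in 10 lists of integrin-related genes, with filled points for an adjusted p below 0.05 and a red line at each list's median. The list labelled fibronectin and RGD ligands holds ligands of the RGD-binding receptors and has the lowest median at -0.65. The latent TGF-beta list has the highest at 0.58.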

How the data were processed

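Gene expression was measured by sequencing RNA of 4 MDA-MB-231 libraries (polyA selection, stranded kit, per the labels' protocols). The deposited values are raw counts per gene name, made per the file headers with featureCounts 2.0.1 on paired reads over exons of the GENCODE 46 basic annotation, with no strand option. Where genes overlap on either strand, their reads could thus not be told apart. The aligner is not given in the sources used here; the submitters' processing notes name GRCh37 and hg19, but coordinates in the tables are those of GRCh38 and are printed as such. Groups and replicate numbers are those of the labels. The low-count filter was filterByExpr of edgeR, with a count minimum of 10 and a total minimum of 15, and TMM factors were 0.987 to 1.009. All 4 libraries were fitted with edgeR 4.0.16 (R 4.3.3, quasi-likelihood, group as the only term, 2 residual degrees of freedom), with Benjamini-Hochberg adjustment over all tested genes. The biological coefficient of variation was 7.52%. The standard error was the log2 fold change over the square root of F. Replicates differed by more than sampling noise (chi-square per degree of freedom 2.12 and 6.65). Members, lists and tests were chosen with earlier results of these data known. Named were all members, the other measured subunits and, per list, up to 3 called genes in each direction with the smallest adjusted p and at least 5 CPM in the higher group. FN1, VTN, SPP1, TLN1, FERMT2, FST, MOCS2, ITGA4, ITGA8, ITGA11, ITGAL, ITGB6, COL13A1, COL5A2, FBN1, MFGE8, LTBP3, TGFB1, ARF6, CD151, CAV1, CD47 and the cell type markers lie outside that rule and were chosen after their values were seen. Alternatives were RLE and upper quartile scaling, no filter, a stricter filter (1 CPM in 2 libraries, summed count 100), DESeq2 1.42.0, limma-voom (limma 3.58.1), the replicate number as a block, leaving out each library, and adding the reads of copies and overlapping genes. The scripts were tested on simulated counts. Figures were drawn with matplotlib 3.10.9.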

Additional observations from a re-analysis of the deposited data

How the results depend on the processing

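Fold changes of all members kept their direction in every alternative except ITGB5, which lay between -0.10 and 0.04 and was never called. Over 12 alternatives each, ITGA2 (log2 fold change 0.84 to 0.92), ITGA10 (1.45 to 1.80) and ITGB3 (-1.26 to -1.08) were called in all, ITGA1 in 11, ITGA5 and ITGB1 in 10, ITGA3 in 9 and ITGAV in 3. ITGA1 lost its call with the reads of PELO and an antisense gene added (0.13, adjusted p = 0.35), where PELO had most of the counts. With each library left out in turn, the members called higher ranged from 3 to 7 and those called lower stayed at 1. All genes called ranged from 720 to 2477 higher and from 715 to 2465 lower, and genes of the integrin-related lists from 19 to 36 higher and from 9 to 26 lower. Where a single library of a group was left, it was assumed to vary like the other group. DESeq2 called 1044 genes higher and 997 lower. The numbers shared by libraries of the groups do not say that they pair: deviations of same-numbered libraries had a correlation of 0.11 across genes. With the replicate block 2297 genes were higher and 2407 lower, and ITGAV joined the members called higher, which made 7.

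Where the groups did not overlap, leaving out a library cannot reverse the direction of a pair ratio, so only its size is given. The log2 change then ranged from 0.35 to 0.46 for ITGA1 over ITGB1, from -1.30 to -0.98 for ITGB3 over ITGB5 and from 0.12 to 0.24 for ITGA2 over ITGA1. It ranged from 0.58 to 0.60 for ITGA2 over ITGB1 and from 1.21 to 1.47 for ITGA10 over ITGB1. For ITGAV it ranged from 1.32 to 1.53 over ITGB3 and, more widely for its size, from 0.14 to 0.44 over ITGB5. Shares by coding length from GENCODE 29, chosen after seeing the data because RefSeq protein lengths were not used here, gave for the EGFP positive and EGFP negative groups the following. Of the collagen chains ITGA1 held 4.22 and 3.72%, ITGA10 0.975 and 1.64% and ITGA2 94.8% (EGFP positive). Of the 6 alpha chains ITGA1 held 0.826 and 1.02%, ITGA2 18.6 and 26%, ITGA10 0.191% (EGFP positive), ITGA3 67.8 and 60.6%, ITGA5 7.37 and 7.22% and ITGAV 5.27 and 4.77%. With ITGA6 added to the 6 alpha chains, also chosen after seeing the data, ITGA1 held 0.353 and 0.465%, ITGA2 10.9 and 16.2%, ITGA10 0.168 and 0.424%, ITGA3 57.5 and 54.7%, ITGA5 7.08 and 7.38% and ITGAV 2.96 and 2.85%. By coding length, of the ITGAV beta partners ITGB3 held 3.97 and 1.85%, ITGB5 95.3 and 97.2% and ITGB8 0.695 and 0.966%. The 14 to 26 counts of ITGB8 limit what can be said of it.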
